A study of Mus musculus with 12 samples.

Results

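The comparison described here is that of HT-22 cells given thyroid hormone alone with HT-22 cells given vehicle. It rests on 6 of the 12 arrays of the series, the 3 whose labels name T3 for 4 h and the 3 whose labels name vehicle for 4 h. The HT-22 line comes from the hippocampus of the mouse and was made to grow indefinitely with SV40 T antigen. The cells were grown in serum stripped of thyroid and steroid hormones and were moved to serum-free medium when treatment began. The T3 group received 30 nM T3 (3,5,3'-triiodothyronine), and both groups held 0.03% DMSO and 0.001% ethanol. The other 6 arrays, 3 with 100 nM corticosterone (CORT) and 3 with T3+CORT, carried the same solvents for the same time, and they enter here in the shared estimate of the spread and in a comparison of the T3 effect with CORT present. Each sample was hybridized to an Illumina mouse whole-genome bead array with 45281 probes. Of these, 17746 probes reached the limit of detection, a normalised signal of 87, on at least 3 arrays and were tested, and they stand for 9574 named genes out of 19057 on the array. Each treatment was run in triplicate, but the labels do not say whether the triplicates were separate cultures, so the p values measure the spread between these samples, which may be technical.

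Thyroid hormone acts mainly through the nuclear receptors TRα and TRβ, encoded by Thra and Thrb, which sit on DNA as heterodimers with the retinoid X receptors. Without ligand the receptors hold corepressors with histone deacetylase activity at their target genes, and T3 binding exchanges these for coactivators, so that positively regulated genes are transcribed within hours. In the developing brain T3 is needed for neuronal maturation, and Klf9, which encodes a Krüppel-like zinc finger protein, is among its best known early targets in neurons.

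The 6 arrays were much alike. Pairwise correlations of log2 signal lay between 0.989 and 0.998, and 16520 to 16544 probes per array reached the limit of detection. T3 replicate 2 lay farthest from its group, with a standard deviation of 0.17 log2 units around the group mean, against 0.14 and 0.11 for the other T3 arrays and 0.0771 to 0.0901 for the vehicle arrays. All arrays share the same distribution of signals to within 0.5 units at any rank, so every change reported is relative to the other probes of the array, and a shift of all mRNAs together would not be seen. The neuronal markers were mostly at background in both groups. Of 27 neuronal marker genes only Eno2 reached the limit on all 6 arrays, with a mean of 154 on vehicle and 158 on T3, while 23 reached it on none, Map2, Snap25, Nefl and Rbfox3 among them. Of 15 fibroblast and mesenchymal markers 13 reached the limit on all 6 arrays, led by Vim at 13577 on vehicle and 14199 on T3. The astrocyte genes Gja1, Sox9 and Slc1a3 were also well above it (3 of 8 markers), against 1 of 11 microglial and 3 of 9 oligodendrocyte markers, and none of these markers was called on T3.

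T3 alone changed few mRNAs. At a Benjamini-Hochberg adjusted p under 0.05 in limma, 16 of 17746 probes were called (0.0902%), of which 14 were higher on T3 (0.0789%) and 2 were lower (0.0113%). They represent 10 named genes, Klf9, Cyb561, Tas1r1, Spon2, Ppm1h, Dbp, Plekha1, Npr3, Cdon and Trp53inp2, and 5 probes without a symbol in the annotation used. In none of the 16 did the vehicle and T3 arrays overlap, but they were picked by a p value from these same arrays. Over all tested probes, the T3 arrays lay wholly above the vehicle arrays for 5.07% and wholly below for 4.61%. At the thresholds of the study's methods, an unadjusted p under 0.02 and a change of at least 1.5-fold, 10 probes passed (0.0564%), 9 of them higher. Of those 10 probes 9 were among the 16, and the other was a Ddx6 probe. Only 4 probes, those of Klf9, Cyb561, Tas1r1 and 2310051E17Rik, changed by 2-fold or more. The count and its split between directions depended on single arrays. It was 8, all higher, without vehicle replicate 3 and 27, of which 20 were higher and 7 lower, without T3 replicate 2, and with array weights it was 61, of which 42 were higher and 19 lower. Without vehicle replicate 3 the calls of Cdon, Npr3, Trp53inp2, the dimmer Plekha1 probe, the E230024B12Rik probe and the 3 probes with no name were lost. The calls of Trp53inp2, the dimmer Plekha1 probe, ILMN_1237565 and ILMN_1246733 were lost on leaving out any 1 of the vehicle arrays.

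Outside this small set both groups lay close together. The middle 98% of log2 changes ran from -0.27 to 0.26, and 94.1% of the tested probes were within 0.2 of zero. An unadjusted p under 0.05 was reached by 954 probes (5.38%), 485 higher and 469 lower. All 3 T3 arrays lay above all 3 vehicle arrays for 899 probes (5.07%) and below them for 818 (4.61%). The median 95% confidence interval of a log2 change reached 0.197 to either side, and the smallest change among the called probes was 0.51 in size. In the plot of all tested probes, 14 of the called probes stand to the right of the main cloud and 2 to the left.

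**Figure D1:**
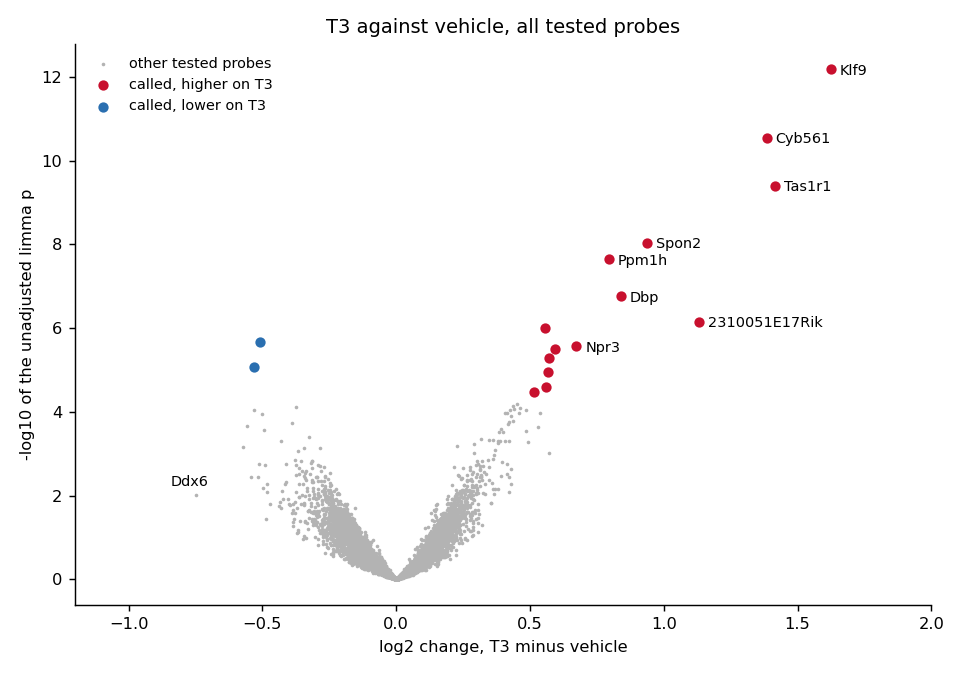
The log2 change on T3 relative to vehicle (horizontal axis) is plotted against the -log10 of the unadjusted limma p (vertical axis) for the 17746 tested probes. The 14 probes called higher and the 2 called lower are coloured. Klf9 stands farthest out at 1.62, while the Ddx6 probe at -0.75 is farthest to the left and was not called.

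The strongest response was that of Klf9. Its signal was 876, 963 and 887 on the vehicle arrays and 2809, 2595 and 3006 on the T3 arrays. Each T3 array was thus well above each vehicle array, with a ratio of means of 3.09 and a log2 change of 1.62 ± 0.09 (SE, n = 3 per group, adjusted p = 1.17e-08). The mRNA level of Klf9 had also been measured by qPCR before hybridization, as a test of whether the hormone treatment had worked, so this gene is not an independent finding of the arrays. In the study's later RT-qPCR, T3 alone raised Cyb561 and Ppm1h significantly. Klf9 rose significantly there only with T3+CORT, and the rises of Dbp and Tas1r1 on T3 alone were not significant. The other called transcription factor was Dbp, a PAR-type bZIP protein that carries the output of the circadian clock. Dbp signals were 480, 453 and 454 on vehicle and 751, 862 and 872 on T3, which is a log2 change of 0.84 ± 0.10 (adjusted p = 0.000515). Within the Krüppel-like family, Klf7 came next at 1042, 1134 and 1027 on vehicle and 1529, 1467 and 1406 on T3. Its groups did not overlap, but its log2 difference of 0.46 missed the threshold (adjusted p = 0.0684), and its other probes were at 0.35 and 0.31. The remaining Klf and Sp genes tested lay between -0.12 and 0.15.

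Of the called genes, Cyb561, Tas1r1, Npr3 and Cdon encode membrane proteins. Cyb561 encodes cytochrome b561, a transmembrane protein that passes electrons from ascorbate across the membrane of secretory vesicles. Its probe read 67.2, 67.9 and 67.3 with vehicle, where no array reached the limit, and 189, 172 and 168 on T3. The measured log2 change was 1.38 ± 0.09 (adjusted p = 2.49e-07). Against the limit of detection the rise was at least 2.02-fold, taking for each vehicle array the higher of the limit and the measured value.

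Tas1r1, a subunit of the umami taste receptor, started at the edge of detection. Its vehicle arrays read 105, 86.5 and 91.8, the second of them below the limit, and its T3 arrays read 212, 292 and 254. The log2 change was 1.41 ± 0.11 (adjusted p = 2.32e-06). It was the only tested gene of the taste receptor list, so nothing can be said of its partners. Npr3, the clearance receptor that removes natriuretic peptides, was measured by 3 tested probes, all higher on all 3 T3 arrays. The called probe read 135, 151 and 132 on vehicle and 230, 215 and 222 on T3 (log2 change 0.67 ± 0.10, adjusted p = 0.00482), and the other probes had differences of 0.42 and 0.30 with adjusted p values of 0.102 and 0.509. Of the other tested genes of the natriuretic system, Npr2 was at -0.06 and Nppb at 0.03.

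Cdon encodes a cell surface protein of the immunoglobulin superfamily that binds hedgehog ligands as a coreceptor. It read 391, 380 and 366 on vehicle and 606, 560 and 551 on T3, a log2 change of 0.59 ± 0.09 (adjusted p = 0.00515). None of the 7 other hedgehog pathway genes tested was called, and 5 of them had a positive difference. The largest were Sufu, an inhibitor of the pathway, at 0.18 and Evc2, a ciliary protein, at 0.13. For each, all T3 arrays lay above all vehicle arrays, which held for 5.07% of all tested probes. Without Cdon the mean of the list overlapped between the vehicle and T3 arrays, and its median was 0.02. Ptch1, the receptor and a usual readout of pathway activity, was at 0.03, and Smo, the signal transducer, at 0.02 at its brightest probe.

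The other called genes encode a matrix protein, a phosphatase, a lipid-binding adaptor and a nuclear cofactor. Spon2 encodes spondin 2, a secreted matrix protein. It read 2769, 2879 and 2523 on vehicle and 4766, 6094 and 4875 on T3, with a log2 change of 0.94 ± 0.09 (adjusted p = 4.07e-05). Ppm1h, a metal-dependent phosphatase that acts on Rab GTPases, read 140, 140 and 155 on vehicle and 266, 255 and 233 on T3. Its log2 change was 0.79 ± 0.08 (adjusted p = 8.06e-05), whereas a dimmer Ppm1h probe, below the limit on 2 of the vehicle arrays, was at 0.13 and overlapped between the groups. No other member of the PPM phosphatase family was called among the 16 tested, which ranged from -0.19 for Ppm1k to 0.20 for Ppm1j.

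Plekha1 encodes a pleckstrin homology domain protein that binds the lipid phosphatidylinositol 3,4-bisphosphate. Both of its tested probes were called, although they differ widely in brightness. The brighter read 3713, 3861 and 3879 on vehicle and 6155, 5590 and 5118 on T3, and the dimmer 260, 253 and 280 against 372, 434 and 365. Their log2 changes were 0.55 ± 0.08 and 0.56 ± 0.10, with adjusted p values of 0.00224 and 0.0296. Trp53inp2 encodes a nuclear protein known both as a coactivator of thyroid hormone receptors and as a factor in autophagy. It read 201, 203 and 205 on vehicle and 304, 327 and 275 on T3, a log2 change of 0.57 ± 0.09 (adjusted p = 0.00758). Of the 30 other autophagy genes tested 13 had a positive and 17 a negative difference, with a median of -0.03 (over the whole list the median was 0.03 without T3 replicate 2), and none was called.

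Of the 5 called probes without a symbol, 2 are named in the study's own probe tables as 2310051E17Rik and E230024B12Rik. Whether either probe reads a gene already named above was not examined. The 2310051E17Rik probe read 141, 138 and 153 on vehicle and 370, 233 and 361 on T3, where T3 replicate 2 was much the lowest of the T3 arrays but still above every vehicle array (log2 change 1.13 ± 0.15, adjusted p = 0.00179). The E230024B12Rik probe read 100.3, 111 and 94.1 on vehicle and 157, 149 and 147 on T3, a log2 change of 0.57 ± 0.09 (adjusted p = 0.0139). The other 3 have no name in the sources used here. ILMN_1246733 was higher by 0.52 ± 0.09 (adjusted p = 0.0375). Both falls belong to bright unnamed probes, ILMN_1256844, which went from 7962, 8151 and 8162 on vehicle to 5414, 5499 and 6155 on T3, and ILMN_1237565, which went from 3477, 3488 and 3597 to 2118, 2668 and 2562. Their log2 changes were -0.51 ± 0.07 and -0.53 ± 0.08, with adjusted p values of 0.00426 and 0.0119. No gene with a symbol was called lower on T3.

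**Figure D2:**
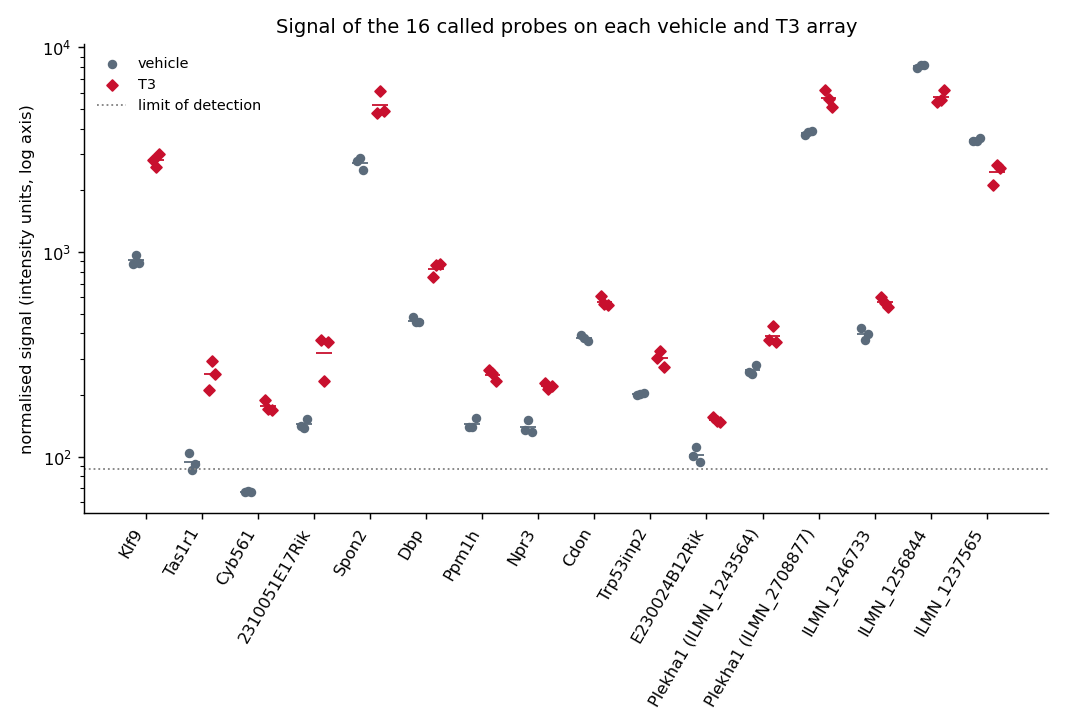
Normalised signal (vertical log axis, intensity units) of the 16 called probes on each of the 3 vehicle arrays (circles) and the 3 T3 arrays (diamonds), with a short line at each group mean and a dotted line at the limit of detection of 87. The T3 and vehicle points of each probe are apart, and only the Cyb561 probe lies below the limit on all vehicle arrays.

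Ddx6, an RNA helicase of processing bodies, had the largest negative difference of any probe but a wide spread. Its vehicle arrays read 599, 391 and 331 and its T3 arrays 214, 302 and 254, so the groups did not overlap, and the log2 difference was -0.75 ± 0.26 (adjusted p = 0.694). Of the 4 other tested Ddx6 probes, 3 had differences from -0.37 to -0.21, and the brightest, at 1127, 1112 and 1207 on vehicle and 1225, 1012 and 1221 on T3, was at 0.00. The probes of this gene disagreed.

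The promoters of the called genes were examined for AGGTCA, the hexamer that thyroid hormone receptors recognise and that is repeated with a spacer of 4 bases in a typical response element. The search covered both strands of 300-base windows from 250 bases before to 50 bases after the transcription start, taken from the RefSeq annotation of GRCm38.p6. The start used is not always the outermost one of a gene. The windows of Ppm1h, Plekha1, Npr3 and Cdon lie inside the annotated gene. The Ppm1h gene begins at 122677428 and its window at 122678512, and Cdon begins at 35421528 and its window at 35451826. Of the 10 called genes, 8 have a window in the table used, and 1 of these, Ppm1h, holds the hexamer, against 16.3% of all 32851 windows. The Ppm1h window holds it at 2 places, 238 and 78 bases before the start, which is so for 1.79% of all windows. Its sequence is shown as the only one with a match, beside that of Klf9, the strongest responder, in which these letters do not occur. Both are given 5′ to 3′ on the plus strand, with AGGTCA in capitals.
Ppm1h, chr10:122678512-122678811: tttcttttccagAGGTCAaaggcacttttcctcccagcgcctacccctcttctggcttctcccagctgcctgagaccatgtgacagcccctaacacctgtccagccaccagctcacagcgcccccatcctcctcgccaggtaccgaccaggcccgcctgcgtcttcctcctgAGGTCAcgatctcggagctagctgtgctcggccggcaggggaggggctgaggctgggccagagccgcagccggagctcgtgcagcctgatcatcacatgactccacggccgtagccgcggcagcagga
Klf9, chr19:23140976-23141275: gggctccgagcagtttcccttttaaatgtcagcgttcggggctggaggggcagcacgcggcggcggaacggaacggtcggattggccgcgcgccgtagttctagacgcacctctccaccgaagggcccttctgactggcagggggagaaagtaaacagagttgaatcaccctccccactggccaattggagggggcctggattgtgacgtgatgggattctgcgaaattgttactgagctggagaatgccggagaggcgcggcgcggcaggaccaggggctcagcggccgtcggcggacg
A match in such a window describes its letters only, and response elements farther from the start were not searched. Cyb561 has no window here. In the paper, a fragment from an intron of this gene gave T3-dependent reporter activity, and an upstream fragment did not. Mutating the predicted T3 response element of the intronic fragment removed that activity. Thyroid hormone receptor was found at that site by chromatin immunoprecipitation, whether or not hormone was given.

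Htra1 and Klhl21, both just short of the threshold, lie next to or near a called gene. In the RefSeq annotation Htra1, which encodes a secreted serine protease, is the next protein-coding gene after Plekha1 on chromosome 7. Both of its probes were higher on every T3 array than on any vehicle array, going from 351, 335 and 380 to 468, 532 and 458 and from 269, 261 and 288 to 354, 406 and 368. The log2 differences were 0.45 ± 0.09 and 0.46 ± 0.09, each with an adjusted p of 0.0658. Klhl21, an adaptor of a cullin 3 ubiquitin ligase, lies 2 protein-coding genes from Tas1r1 on chromosome 4. Its signal was 900, 852 and 987 on vehicle and 1182, 1153 and 1353 on T3 (log2 difference 0.43 ± 0.09, adjusted p = 0.0743). The gene between them, Zbtb48, was not tested. The nearest 2 protein-coding genes on each side of the 10 called genes held 35 tested probes of 26 genes. Of these, only the 3 probes of Htra1 (2 probes) and Klhl21 had an unadjusted p under 0.05, which 5.38% of all tested probes reached. The nearest genes to Klf9, Smc5 (2 probes) and Trpm3, were at -0.08 and -0.04, respectively. Htra1 and Klhl21 were singled out after their values were seen.

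The 15 largest positive differences among other named probes whose groups did not overlap, which include the Htra1, Klf7 and Klhl21 probes, lay between 0.42 and 0.53 on the log2 scale, and none was called. Mxra7, a gene associated with matrix remodelling, read 290, 266 and 279 on vehicle and 351, 408 and 373 on T3 (0.44, adjusted p = 0.0658). The probe of Slco2a1, which encodes a prostaglandin transporter, read 234, 224 and 204 against 300, 294 and 293 (0.43, adjusted p = 0.0658). A second probe of Mxra7 was at 0.15, and the other probes of Slco2a1 were at 0.39 and 0.30. Stat5a, a signal-dependent transcription factor, was at 0.42 (adjusted p = 0.0947), Usf2, a bHLH factor, at 0.44 (adjusted p = 0.0947), and Gbp3, a guanylate-binding protein, at 0.53 (adjusted p = 0.113). Fam180a was below the limit on all vehicle arrays and was at 0.44, at least 1.08-fold higher against the limit (adjusted p = 0.0658).

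The 15 largest negative differences of this kind lay between -0.57 and -0.38 and were not called either. Tle1, a corepressor of the Groucho family, had the smallest p of these, with 1217, 1210 and 1142 on vehicle and 894, 733 and 851 on T3 (-0.53 ± 0.10, adjusted p = 0.0658), while its other probes were at -0.12 and 0.03. Pdk4, the kinase that shuts off pyruvate dehydrogenase, read 407, 403 and 445 against 338, 324 and 296 (-0.39 ± 0.08, adjusted p = 0.0985). Aldh3a1, an aldehyde dehydrogenase, read 1507, 1550 and 1544 against 932, 1116 and 1091 (-0.56 ± 0.12, adjusted p = 0.109). Clspn, which encodes the replication checkpoint protein claspin, was at -0.49 (adjusted p = 0.124), but its 3 other probes, at -0.14, 0.03 and 0.11, did not share this. The negative differences of Eef1b2 and Commd1 were largest on T3 replicate 2, and that of Psmb7 on T3 replicate 1, where its probe read 3782 against 6858 and 6496 on the other T3 arrays.

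Of a list of 38 receptors, cofactors, transporters and deiodinases, which does not hold Trp53inp2, 19 were tested and none was called, and their median log2 difference was -0.01 (0.00 with array weights). Thra was at the limit of detection in both groups, with 87.7, 80.0 and 95.5 on vehicle and 91.4, 95 and 87.5 on T3. The single Thrb probe stayed between 48.1 and 57.9, below the limit on all 6 arrays, as did the probes of the deiodinases Dio1, Dio2 and Dio3. A reading below the limit does not show that an mRNA was absent. The paper cites earlier work in which this line had functional thyroid hormone receptors. Rxra was at 0.00 and Rxrb, at its brightest probe, at -0.07. The coactivators Ncoa2 and Ncoa3 were at -0.01 and -0.10, and Hdac3, a deacetylase of the corepressor complex, at 0.06. Kat2b, a histone acetyltransferase recruited as a coactivator, had the largest difference of the list at -0.31, with an adjusted p of 0.429, and it was the only member with an unadjusted p under 0.05. The corresponding shares of all 9574 genes are 2.95% higher and 2.51% lower.

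Among genes known as T3 targets in other tissues and cells only Klf9 and Dbp were called. Of 50 listed 15 were tested, 10 of them with a positive difference, and their median was 0.08 (0.04 without vehicle replicate 1 and 0.02 with no filter) against 0.00 for all tested genes. Hr, which encodes the corepressor hairless, lay near the limit, with 96.5, 87.5 and 83.0 on vehicle and 107, 106 and 100.5 on T3 (0.23, adjusted p = 0.911). Bcl3 was at 0.19. The lipogenic targets Fasn, Scd1 and Srebf1 were at 0.08, -0.04 and 0.02. Atp2a2, the calcium pump of the sarcoplasmic reticulum, was at 0.12 at its brightest probe. Its other tested probes had means of 325.9 and 419.5 on vehicle and 338.9 and 413.4 on T3, respectively. Thrsp was below the limit on all 6 arrays. Without the called pair, 8 of 13 were positive with a median of 0.02.

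Some gene families had small shared differences, which are given as counts and medians with no test. Of all 9574 genes 4844 (50.6%) had a positive difference. For each list the mean log2 signal of its tested genes was computed on each array relative to the vehicle mean. In 14 of the 50 lists with at least 10 tested genes the T3 arrays did not overlap the vehicle arrays, 10 with a positive and 4 with a negative median. Among single probes the shares without overlap were 5.07% above and 4.61% below, though a list is a mean over genes and not a single probe, and the mean over all 9574 genes overlapped. Genes of a list share an array and are not replicates, and no list held a called gene apart from the 10 named above. Some lists stood apart through 1 called gene, and without it the Krüppel-like and Sp, PPM phosphatase, circadian and glucocorticoid-induced lists overlapped. In the Krüppel-like and Sp list, the median of -0.02 had the opposite sign to the mean, which Klf9 raised.

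**Figure D3:**
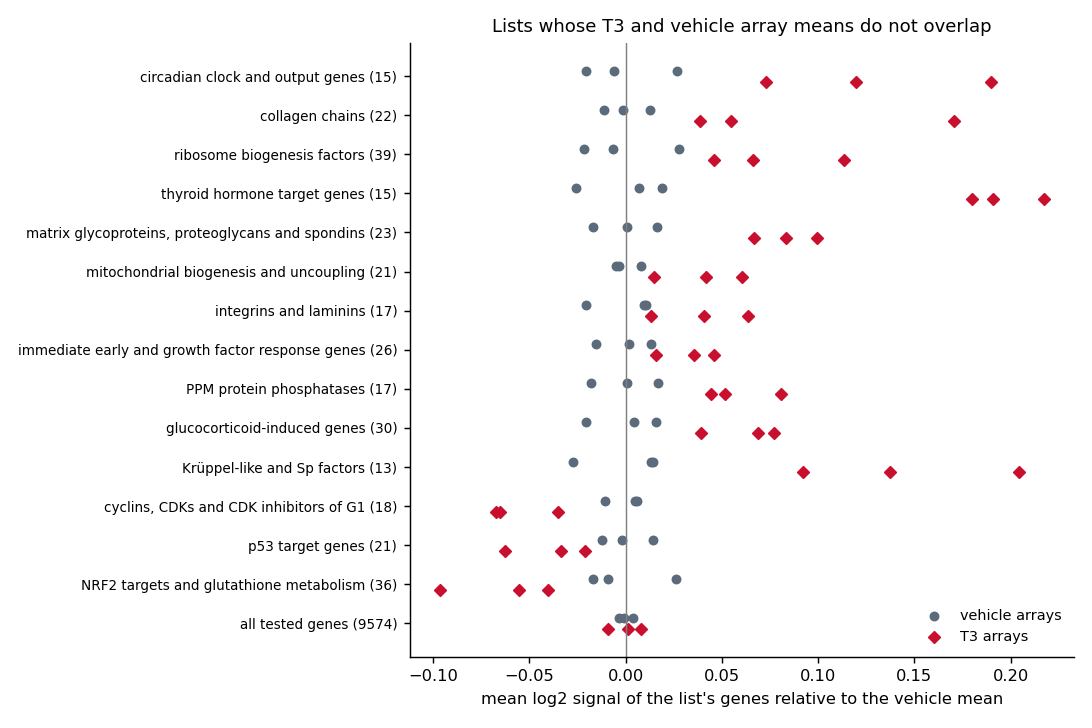
Mean log2 signal of the tested genes of each list on each array, relative to the vehicle mean (horizontal axis), for the 14 lists of at least 10 genes whose vehicle arrays (circles) and T3 arrays (diamonds) did not overlap, with all 9574 tested genes at the bottom. Numbers in parentheses are genes tested. Collagen chains, ribosome biogenesis factors and thyroid hormone targets lie to the right on T3, and NRF2 targets, p53 targets and cyclins to the left.

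Extracellular matrix lists had positive medians. Of 22 collagen chains tested 18 had a positive difference, with a median of 0.09, and the array means were 0.17, 0.04 and 0.05 on T3 against 0.01, -0.01 and -0.00 on vehicle. T3 replicate 1 was the highest, and without it the median was 0.06 (0.04 with no filter). Only Col4a2, a chain of basement membrane collagen, had an unadjusted p under 0.05, with a log2 difference of 0.37, and none was called. The share of all 9574 genes that were higher at that p was 2.95%. The fibrillar chains Col1a1 and Col5a1 were at 0.09 and 0.13. Of 23 matrix glycoproteins, proteoglycans and spondins 17 were positive, with a median of 0.04 (0.07 with array weights or the stricter limit), and without Spon2 it was 16 of 22 with the same median and no overlap. Hspg2, which encodes the basement membrane proteoglycan perlecan, was at 0.41 (adjusted p = 0.177), and Mfap5, a microfibril protein, at -0.23. Integrins and laminins had a median of 0.04 with 13 of 17 positive, but it was 0.02 without vehicle replicate 1 and 0.08 without vehicle replicate 2 or T3 replicate 1.

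Ribosome biogenesis factors, the nucleolar proteins that make and process ribosomal RNA, had a median of 0.09 with 28 of 39 positive. The array means were 0.11, 0.05 and 0.07 on T3 against -0.01, 0.03 and -0.02 on vehicle. Rrp12, Rrp15 and Nhp2 had an unadjusted p under 0.05, with differences of 0.32, 0.24 and 0.18, and none was called. Of all 9574 genes 2.95% were higher at that p. The ribosomal proteins themselves had 15 of 54 positive and a median of -0.02 (-0.04 without T3 replicate 2 and -0.01 without vehicle replicate 2), and array means that overlapped. Subunits of oxidative phosphorylation, a process long tied to thyroid hormone, had 22 of 67 positive and a median of -0.02 (0.00 with array weights) with overlap. The list of mitochondrial biogenesis genes had a median of 0.04 (-0.01 without T3 replicate 1), led by Slc25a25, a calcium-dependent ATP carrier, and Pprc1, a coactivator of the PGC-1 family, each at 0.30. Cholesterol synthesis genes had 14 of 19 positive and a median of 0.08 (0.05 without vehicle replicate 2 or T3 replicate 3, 0.03 without T3 replicate 2 and 0.02 over all tested probes of each gene), with overlap between groups, and no member had an unadjusted p under 0.05.

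In the circadian list 12 of 15 genes were positive, with a median of 0.13 (0.03 with no filter and 0.08 over all tested probes of each gene) and array means of 0.19, 0.07 and 0.12 on T3 against -0.01, 0.03 and -0.02 on vehicle. Besides Dbp, the differences were 0.19 for Per3, 0.20 for Per2, 0.14 for Per1, 0.16 for Cry2 and 0.19 for Arntl, none of them called. Tef, a paralogue of Dbp, was at -0.10. Without Dbp the median was 0.10 with 11 of 14 positive, and T3 replicate 2 fell within the vehicle range.

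Antioxidant genes had a negative median. Of 36 NRF2 targets and genes of glutathione metabolism 27 had a negative difference, with a median of -0.08 (-0.04 without T3 replicate 1) and array means of -0.10, -0.06 and -0.04 on T3 against -0.02, 0.03 and -0.01 on vehicle. Nfe2l2, which encodes NRF2 itself, was at -0.23, its target Nqo1 at -0.23, and the glutathione transferase Mgst2 at -0.33, and these were the members with an unadjusted p under 0.05. At that p 2.51% of all 9574 genes were lower. Gclm, the regulatory subunit of the enzyme that begins glutathione synthesis, was at -0.15, and Hmox1 at 0.06. Of 21 p53 target genes 16 were negative, with a median of -0.04 (-0.07 without T3 replicate 1). Among them Cdkn1a, the CDK inhibitor p21, was at -0.23 and Trp53inp1 at -0.24, while Bbc3 and Gadd45a were at 0.30 and 0.22. Of 18 cyclins, CDKs and CDK inhibitors 10 were negative, with a median of -0.04 (-0.08 without T3 replicate 1 and -0.02 without vehicle replicate 2) and the largest difference at Cdk2 (-0.36). None of the members of these lists was called.

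The T3 effect could be measured again in cells that also received CORT, the main glucocorticoid of rodents, by setting the 3 T3+CORT arrays against the 3 CORT arrays. No array is shared with the comparison of T3 alone. In that comparison 99 of 17746 probes were called (0.558%). Of the 16 probes called on T3 alone, 15 had the same sign with CORT present and 10 were called there, all 10 of them higher. They were Klf9 (1.34), Cyb561 (1.47), Tas1r1 (1.31), Dbp (0.75), Cdon (0.65), Npr3 (0.47), Trp53inp2 (0.42), the brighter Plekha1 probe (0.45) and the 2310051E17Rik and E230024B12Rik probes (1.27 and 0.92). The T3 effect differed between the conditions by a test of the difference in 1 of the 16, Spon2. Spon2 read 2152, 2221 and 2260 on the CORT arrays and 1734, 1791 and 1898 on the T3+CORT arrays, so that with CORT present the T3+CORT arrays were the lower. The log2 difference there was -0.29 ± 0.09 (adjusted p = 0.263), and the difference between the effects was -1.23 (adjusted p = 0.0005). Ppm1h was at 0.23 with CORT, and the difference of -0.57 had an adjusted p of 0.086. Both unnamed probes that were lower on T3 alone were at -0.15 and -0.12 with CORT, with adjusted p values of 0.559 and 0.744.

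**Figure D4:**
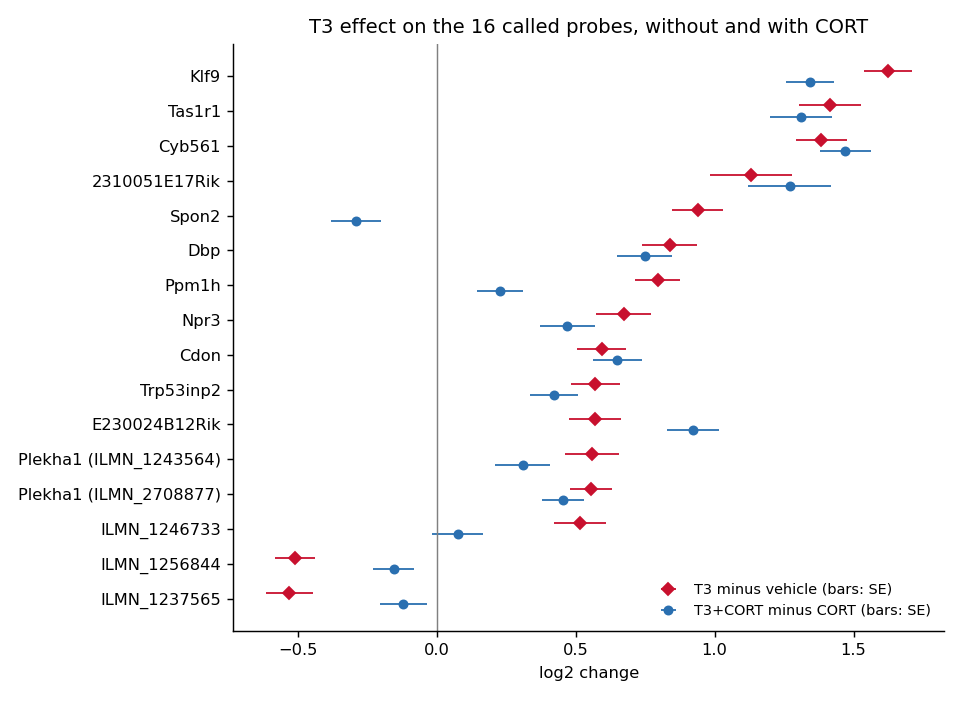
The log2 change on T3 (horizontal axis, bars are standard errors of the fit) of the 16 called probes, for T3 minus vehicle (diamonds) and T3+CORT minus CORT (circles), with 3 arrays in each group. Klf9 was at 1.62 and 1.34, Cyb561 at 1.38 and 1.47, and Spon2 was at 0.94 without and -0.29 with CORT.

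The weaker differences were also compared. Of the 938 probes with an unadjusted p under 0.05 that were not called, 524 (55.9%) had the same sign with CORT present, against 52.1% of all tested probes. Across the 17746 probes, which are not independent replicates, the differences with and without CORT had a Pearson correlation of 0.12. The neighbouring gene Htra1 was at -0.09 and 0.03 with CORT present, and Klhl21 at 0.38 (adjusted p = 0.0618). Collagen chains had a median of 0.09 on T3 alone and -0.10 with CORT present, where 5 of 22 were positive, and matrix glycoproteins went from 0.04 to -0.11. The circadian list went from 0.13 to -0.07, ribosome biogenesis factors from 0.09 to 0.02, and the NRF2 and glutathione list from -0.08 to 0.01. These differences between list medians were not tested.

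**Figure D5:**
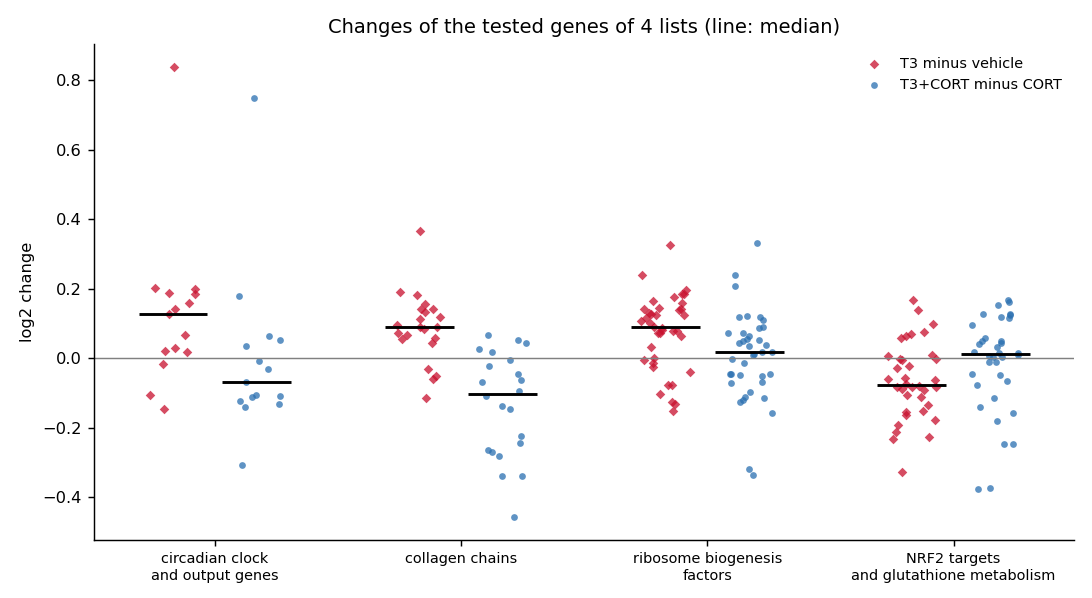
The log2 change of each tested gene (vertical axis) of 4 lists, for T3 minus vehicle (diamonds) and T3+CORT minus CORT (circles), with lines at the medians. The medians for T3 alone lie at 0.13, 0.09, 0.09 and -0.08 from left to right, and with CORT present at -0.07, -0.10, 0.02 and 0.01.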

How the data were processed

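Total RNA of each sample was hybridized to an Illumina Mouse WG-6 v2.0 array. The intensity values used here are the normalised probe intensities deposited by the authors, whose methods name rank invariant normalization in BeadStudio. The methods mention no step that gives all arrays the same distribution of signals, which these values have to within 0.5 units at any rank. They are linear and show no background subtraction, which understates the changes of dim probes. The detection p values deposited by the authors stand in a separate table whose 12 signal columns match no sample label and were not used. Of its 12 detection columns, 6 passed 36.5% to 37.6% of their probes below 0.05. The signal at the same rank in the normalised values, at its highest over these columns, gave the limit of 87. The other 6 passed 3.93% to 5.4% and were left out.

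A probe entered the tests if 3 or more of the 12 arrays had it at the limit or higher. A linear model of the 4 groups was fitted to log2 signals with limma 3.58.1 in R 4.3.3 (lmFit, eBayes with trend, 8 residual degrees of freedom), with Benjamini-Hochberg adjustment over 17746 probes and two-sided p values. The design, the limit and the alternatives, which include the study thresholds and a Welch t-test, are described with their effect in the closing section. Each gene entered a list with its brightest probe. Symbols came from the platform annotation (1 symbol for 34885 probes, several for 18, none for 10378). The genes named are the called probes and those past the study thresholds with their other probes, the 15 largest rises and falls without overlap, the receptor and target lists, and up to 3 members of each other list with the smallest p. Other list members are named to show a range and were chosen after their values were seen. Gene lists (61) and members were chosen with earlier results of these data known. List medians have no test. The scripts were tested on simulated data.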

Additional observations from a re-analysis of the deposited data

Results flagged for a closer look

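The T3 effect differed with CORT present by a test of the difference (the limma interaction over 17746 probes) for 3 named genes. For Spon2 the difference was -1.23 on the log2 scale (adjusted p = 0.0005), from 0.94 on T3 alone, where 3 of 3 T3 arrays were above all vehicle arrays, to -0.29 with CORT. Flnc, which encodes the actin crosslinker filamin C, differed by -1.07 (adjusted p = 0.0227), from 0.42 (adjusted p = 0.513) to -0.64 (adjusted p = 0.022). For Sox9, a transcription factor listed with the astrocyte markers, the difference was -0.66 (adjusted p = 0.0414), from 0.05 on T3 alone to -0.61 with CORT (adjusted p = 0.00118), while its dimmer probe differed by -0.46 (adjusted p = 0.554). In all, 20 of the 17746 probes had an adjusted p under 0.05 in this test.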

How the results depend on the processing

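All 16 called probes kept their direction under every alternative run. The number of called probes was 9 with only the 6 vehicle and T3 arrays, which leaves fewer samples for the spread, and 61 with array weights, which gave T3 replicates 2 and 1 weights of 0.281 and 0.483. It was 16 with the stricter limit, with normexp and with cyclic loess, 17 with no filter and 20 without the trend. A Welch t-test of T3 against vehicle on linear values called 0 after Benjamini-Hochberg adjustment. It had 625 probes at an unadjusted p under 0.05 and 7 past the study thresholds. The study's methods name a Welch t-test for synergy only, and no test for the lists against vehicle. Leaving out 1 array at a time gave 8 to 27 called probes and 11 to 21 past the study thresholds. The call count was 8 without vehicle replicate 3 (where 8 of the 16 were lost, among them both falls, Cdon, Npr3 and Trp53inp2) and 27 without T3 replicate 2, whereas leaving out those arrays gave 18 and 20 past the study thresholds, and dropping T3 replicate 3 gave 21. That count was 23 after normexp with an offset of 16, of which 17 were higher and 6 lower, and without vehicle replicate 3 it split into 10 higher and 8 lower. Klf9, Cyb561, Tas1r1, Spon2, Ppm1h, Dbp and the 2310051E17Rik probe were called in all 14 limma alternatives, and ILMN_1246733 in 8. The cause of these differences was not tested except where stated. With the replicate number as a block, 21 probes were called, 15 higher and 6 lower, all 16 among them. The numbers share no stated culture or batch, and the deviations of same-numbered vehicle and T3 arrays correlated at -0.25, -0.27 and 0.14, so they were not treated as pairs. Between differently numbered arrays these correlations ran from -0.30 (vehicle 1 and T3 3) to 0.40 (vehicle 1 and T3 2). The medians of the collagen, ribosome biogenesis, circadian, thyroid hormone target, matrix glycoprotein, NRF2, p53 and cyclin lists kept their sign in all 14 alternatives, that of the Krüppel-like list in 6. Across lists and alternatives 71 medians moved by more than the spread between arrays and 650 did not. The number of arrays limits the precision, and probes near the limit, such as Tas1r1, Hr and Thra, have compressed changes. Leaving out the called genes from a list was chosen after seeing the data.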
